A study of Homo sapiens with 8 samples.

Results

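NIBAN1, NIBAN2, RAB39A and RAB39B are 2 pairs of related human genes, and their mRNA was followed in A549 cells with and without glucose. The 4 genes were taken from 19775 genes that the array's annotation ties to at least 1 probe set of their own. All 7 of their probe sets were kept, of 41091 with a single gene: 2 each for NIBAN1, NIBAN2 and RAB39B, and 1 for RAB39A. NIBAN1 and RAB39B were chosen by their large glucose differences on these same arrays, and the paralogs NIBAN2 and RAB39A were added as a contrast. The glucose differences of the 4 genes are therefore given below as a description, with no test. The comparisons of SRC-1 siRNA with control siRNA played no part in that choice and were tested.

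A549 is an established line of human lung adenocarcinoma cells. The cells received a control small interfering RNA (siRNA) or one against steroid receptor coactivator 1 (SRC-1), the product of NCOA1. They were kept for 36 h in medium with 10% dialyzed serum, which is depleted of small molecules, and then given DMEM with or without glucose and with the same serum. Crossing the 2 siRNAs with the 2 media gives 4 groups, with 2 arrays each that the labels call biological replicates. The time in the last medium is not given in the labels used here. All groups were transfected with the reagent DharmaFECT, so none shows untouched cells, and an siRNA lowers its target without deleting it. The labels do not say whether replicates came from separate cultures, and a p-value here reflects the scatter of 2 arrays per group, which may be technical.

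Niban proteins are a small family of cytoplasmic proteins. NIBAN1 (older name FAM129A) is known as a stress-induced protein that bears on translation through the initiation factor eIF2, and its mRNA is known to rise under stress of the endoplasmic reticulum (ER). NIBAN2 (FAM129B) is known from cell contacts and from growth factor signalling. RAB39A and RAB39B belong to the RAB GTPases, molecular switches that sit on membranes and direct vesicle traffic. RAB39B is best known from neurons, and its loss causes an inherited intellectual disability with early parkinsonism, while RAB39A is known from phagosomes.

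The stretch before the start site was examined for the members because 1 gene of each pair stood far below its level without glucose and its relative did not. RAB39A had a dim signal in both media, so a fall like that of RAB39B could not have been seen for it. RefSeq's promoter table (GRCh38.p14) held 3 of the 4 members: NIBAN1, NIBAN2 and RAB39A. The NIBAN pair is shown, 250 bases before the start site each, 5′ to 3′ on the minus strand. The NIBAN1 stretch is chr1:184974509-184974758 and the NIBAN2 stretch is chr9:127579032-127579281.
NIBAN1: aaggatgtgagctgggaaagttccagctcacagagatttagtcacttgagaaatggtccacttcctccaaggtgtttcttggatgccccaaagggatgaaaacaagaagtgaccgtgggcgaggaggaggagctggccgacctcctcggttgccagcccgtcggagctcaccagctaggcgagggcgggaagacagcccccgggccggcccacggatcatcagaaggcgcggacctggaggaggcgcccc
NIBAN2: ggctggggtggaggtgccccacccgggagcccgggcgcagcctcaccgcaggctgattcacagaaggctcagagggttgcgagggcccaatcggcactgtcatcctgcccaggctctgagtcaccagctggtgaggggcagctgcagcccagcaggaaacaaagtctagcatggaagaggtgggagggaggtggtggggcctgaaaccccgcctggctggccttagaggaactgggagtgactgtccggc
No letters are in capitals, since none of the motifs searched was found in these windows, which ran to 50 bases past the start. The motifs were the composite element of C/EBP and ATF factors (TGATGNAA), the cyclic AMP element (TGACGTCA), an element of the unfolded protein response (TGACGTGG), the E-box (CACGTG) and the ER stress element. Both strands were read, and each motif was searched on its own. The RAB39A window held none of the 5 motifs either. The composite element stood in 3.62% of all 35116 windows of this length, the cyclic AMP element in 1.85%, the unfolded protein element in 0.729%, the E-box in 7.26% and the ER stress element in 0.0769%. Counted by gene, the composite element was found for 9 of 29 integrated stress response genes with a window (31%). Its share of all 27305 genes was 4.46%. Of the same 29 genes, 3 had the E-box (10.3%, beside 8.77% of all genes) and 1 the unfolded protein element (3.45%, beside 0.927%). The cyclic AMP element and the ER stress element were found for 0 of them. The NIBAN1 stretch had 61.2% G and C and 14 CpG dinucleotides, the NIBAN2 stretch 66% and 8, and the RAB39A stretch 71.6% and 24. The medians over all windows were 58% and 11.

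The arrays themselves were alike. Array medians of the log2 signal lay between 4.97 and 5.01, and the 2 arrays of a group had a correlation of 0.997 to 0.998 over probe sets. NCOA1 fell 9.10-fold with SRC-1 siRNA in medium with glucose (adjusted p = 1.44e-05, limma) and 8.78-fold without (adjusted p = 1.65e-05). All 6 epithelial markers (KRT8, KRT18, KRT7, KRT19, EPCAM and CDH1) passed the filter on dim signals, a mean log2 signal of at least 4.80 over the 8 arrays, and lay between the 78.5th and the 99.95th percentile of probe sets. Of the other markers, 3 of 3 measured for alveolar type II cells passed. The surfactant genes SFTPC and SFTPB lay at the 74.3th and 56.9th percentile and the factor NKX2-1 at the 56.1th. For fibroblasts 4 of 6 passed, for leukocytes 2 of 4, for endothelium 2 of 4 and for neurons 2 of 3. Of all 19775 genes 13584 passed, so passing was common and does not show that a gene is expressed. The leukocyte marker PTPRC (10.4th percentile), the endothelial markers KDR (15.4th) and CDH5 (18.9th) and the neuron marker STMN2 (18.4th) were among the dimmest. The neuron markers SYT1 (88.1th) and SNAP25 (75.5th) were bright. The leukocyte markers CD3E, CD14 and LYZ lay at the 50.6th, 43.2th and 22.7th, and the endothelial PECAM1 and VWF at the 54.8th and 50.3th. The fibroblast markers ran from COL1A2 (29.1th) to COL1A1 (76.6th). The mean log2 signal of the 6 epithelial markers was 11.39 to 11.44 on the arrays without glucose and 11.51 to 11.54 with it. That of the 4 leukocyte markers measured (4.24 to 4.28 and 4.21 to 4.58) and of the 4 endothelial ones (4.46 to 4.61 and 4.46 to 4.58) overlapped between the media. The mean log2 signal of the 3 neuron markers was 6.91 to 6.99 on the arrays without glucose and 6.67 to 6.81 with glucose. Over the 8 arrays SYT1 ran from 8.47 to 10.1, SNAP25 from 7.41 to 8.11 and STMN2 from 3.36 to 3.72. The mean of the neuron markers thus hides wider spreads of single markers. That of the 6 fibroblast markers was 5.13 to 5.30 without and 5.34 to 5.46 with glucose. The excess of 3' over 5' signal, a sign of RNA quality, was 0.12 to 0.14 without and 0.14 to 0.17 with glucose for GAPDH, and 0.41 to 0.54 and 0.51 to 0.64 for beta-actin. The part of these shifts in the glucose differences below was not tested. A lower signal can come from fewer cells that express a gene or from less RNA per cell, and these arrays cannot tell them apart.

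NIBAN1 had a high signal in both groups without glucose and a low one in both groups with it. Its brightest probe set, 217967_s_at, had log2 signals of 11.02 and 11.07 with control siRNA without glucose. With control siRNA and glucose it had 6.96 and 6.88. With SRC-1 siRNA it had 10.94 and 11.11 without glucose and 6.90 and 6.75 with glucose. The lowest of the 4 arrays without glucose thus lay far above the highest of the 4 with it, and within each medium the values of the 2 siRNAs overlapped in range. The difference with glucose was -4.13 ± 0.096 on the log2 scale with control siRNA (SE, n = 2 per group), a 17.5-fold lower signal, and -4.20 ± 0.096 with SRC-1 siRNA, 18.3-fold lower. With control siRNA it ranked at the 96.2th percentile of all one-gene probe sets without glucose and at the 67.2th with glucose.

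The other NIBAN1 probe set, 217966_s_at, gave the same picture on other probes. Without glucose it had 10.32 and 10.28 with control siRNA and 10.37 and 10.23 with SRC-1 siRNA. With glucose it had 6.23 and 5.96 with control siRNA and 6.47 and 6.04 with SRC-1 siRNA. The arrays with glucose lay further apart on this probe set, with an SD of 0.19 and 0.31, than those without, with 0.028 and 0.098. The differences were -4.20 ± 0.15 and -4.04 ± 0.15, or 18.4-fold and 16.4-fold lower. Over both probe sets and both siRNAs the fold thus ran from 16.4 to 18.4, and the order of the 2 siRNAs turned between the probe sets. Both names end in _s_at, the mark of probe sets that may match more than 1 transcript. The annotation ties both to NIBAN1 alone.

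**Figure D1:**
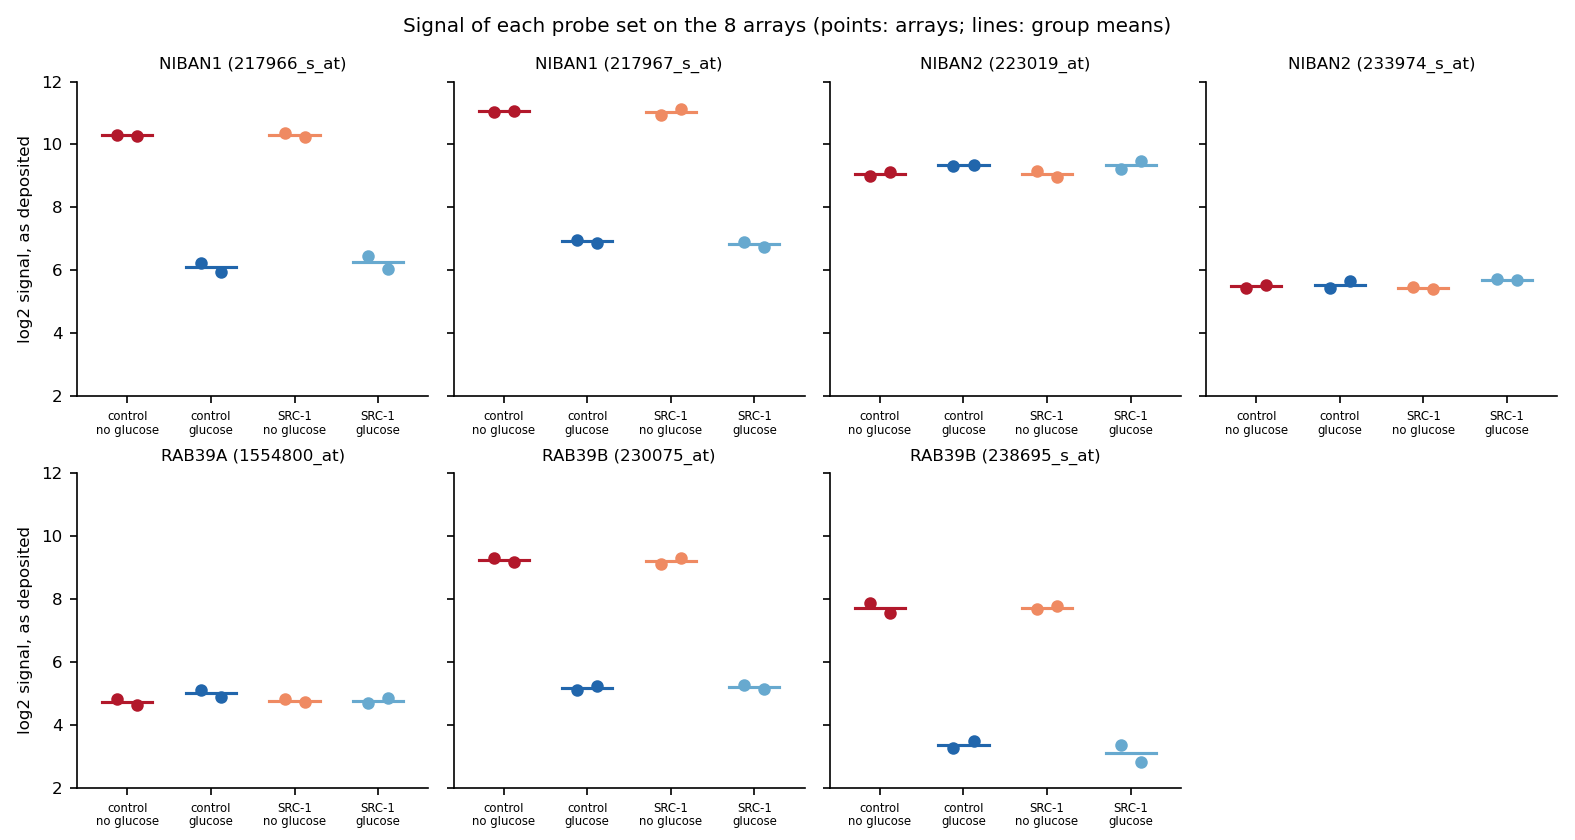
Log2 signal as deposited (vertical axis) of each of the 7 probe sets of NIBAN1, NIBAN2, RAB39A and RAB39B on the 8 arrays, 2 points per group with a line at the group mean. Both NIBAN1 and both RAB39B probe sets are high on the 4 arrays without glucose and low on the 4 with glucose, and the probe sets of NIBAN2 and RAB39A stay near 1 level.

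RAB39B showed a pattern like that of NIBAN1. Its brightest probe set, 230075_at, had log2 signals of 9.31 and 9.16 with control siRNA and 9.12 and 9.31 with SRC-1 siRNA in medium without glucose. With glucose it had 5.11 and 5.25 with control siRNA and 5.26 and 5.15 with SRC-1 siRNA. The 2 media did not overlap, and the 2 siRNAs overlapped in each medium. The difference with glucose was -4.06 ± 0.10 with control siRNA, 16.6-fold lower, and -4.01 ± 0.10 with SRC-1 siRNA, 16.1-fold lower. With glucose this probe set stood at the 46.2th percentile with control siRNA and the 46.6th with SRC-1 siRNA, near the dim range. Without glucose it stood at the 87.6th and 87.5th. The signals with glucose were not set against a background level, so the size of the fall may be limited by it.

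The dimmer RAB39B probe set, 238695_s_at, was also far lower with glucose, where its signal was among the dimmest. It had 7.87 and 7.56 with control siRNA and 7.67 and 7.78 with SRC-1 siRNA without glucose. With glucose it had 3.26 and 3.48 with control siRNA and 3.38 and 2.81 with SRC-1 siRNA. These last signals lay at the 16.1th and 11.3th percentile, and the 2 arrays with SRC-1 siRNA and glucose were the furthest apart of its groups (SD 0.40). The measured differences were -4.34 ± 0.18 and -4.63 ± 0.18. The signals with glucose lay below the filter limit of 4.80 and were not set against a background level, so no fold is given and the size is not ranked against that of the brighter probe set.

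NIBAN2, the relative of NIBAN1, was slightly higher with glucose. Its bright probe set, 223019_at, had 9.01 and 9.13 with control siRNA without glucose and 9.31 and 9.36 with glucose. With SRC-1 siRNA it had 9.15 and 8.96 without glucose and 9.21 and 9.48 with glucose. The arrays with glucose all lay above those without, by a small margin. The differences were 0.26 ± 0.11 and 0.29 ± 0.11, which is 1.20-fold and 1.22-fold. The other probe set, 233974_s_at, lay between 5.41 and 5.72 on all 8 arrays and differed by 0.052 ± 0.10 with control siRNA, where the media overlapped, and by 0.26 ± 0.10 with SRC-1 siRNA, where they did not.

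RAB39A, the relative of RAB39B, had a dim signal throughout. Its only probe set, 1554800_at, had 4.83 and 4.62 with control siRNA without glucose and 5.10 and 4.90 with glucose. With SRC-1 siRNA it had 4.81 and 4.72 without glucose and 4.69 and 4.86 with glucose. The media overlapped with SRC-1 siRNA and did not with control siRNA. The differences were 0.28 ± 0.11 and 0.0080 ± 0.11. Its mean over the arrays, 4.82, lay just above the limit of 4.80 below which probe sets were left out, and its group means lay between the 38.7th and 43.3th percentile. NIBAN3, the remaining gene of the NIBAN family, had 3 probe sets, all below that limit. The brightest lay between 4.54 and 5.11 on the 8 arrays.

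**Figure D2:**
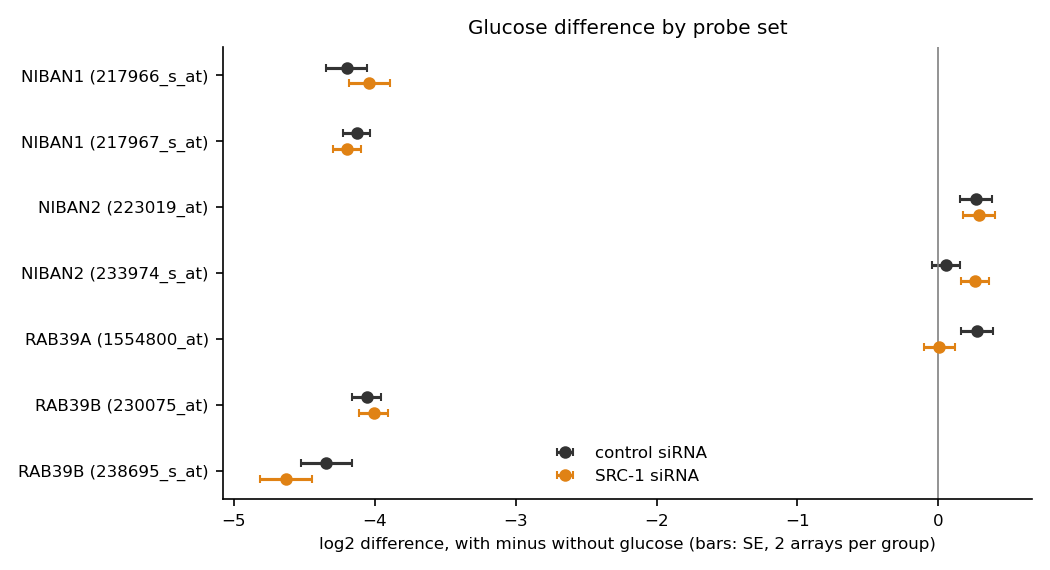
Difference of the log2 signal with minus without glucose (horizontal axis) for each probe set, with control siRNA and with SRC-1 siRNA, with bars for the SE at 2 arrays per group. The 4 probe sets of NIBAN1 and RAB39B lie between -4.63 and -4.01, and the 3 of NIBAN2 and RAB39A between 0.0080 and 0.29.

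Read by gene on the brightest probe set, 2 of the 4 members were lower with glucose with no overlap of the media. By adjusted p, an unlike measure, 21.6% of all 13584 tested genes were called lower with control siRNA and 20.0% with SRC-1 siRNA. The share of all genes without overlap was not counted. Nothing is read from the count of members, since this contrast chose them. Counted from the largest fall, NIBAN1 was the 3rd and RAB39B the 4th of 13584 genes with either siRNA. NIBAN2 was the 10621st with control siRNA and the 10707th with SRC-1 siRNA, and RAB39A the 10711th and the 6826th. The difference of NIBAN1 minus that of NIBAN2 was -4.39 (log2) under control siRNA and -4.49 under SRC-1 siRNA. That of RAB39B minus that of RAB39A was -4.33 and -4.02. Without glucose RAB39A had means of only 4.73 with control siRNA and 4.77 with SRC-1 siRNA, and the lowest value of any probe set was 1.98. A fall as large as that of RAB39B could thus not have been seen for RAB39A, and nothing is read from the contrast of this pair. The order of the group levels was the same for NIBAN1 on its brightest probe set and for RAB39B to this extent: both groups without glucose came first, and the 2 groups within a medium differed by less than 0.10, about the spread between arrays (pooled SD 0.089 for NIBAN1 and 0.10 for RAB39B).

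The comparison of SRC-1 siRNA with control siRNA asks whether the coactivator bears on these genes. None of the 4 members was called in medium with glucose, where only the target NCOA1 was (0.00736% of all tested genes, limma, adjusted over 13584 genes). None was called without glucose (0.0221% of all genes), none on average over both media (0.0294%), and none for the interaction, the difference between the 2 glucose differences (0%). In each of these 4 comparisons 0 of the 4 genes and 0 of their 7 probe sets had an unadjusted p below 0.05. Over all 13584 genes, 781 had an unadjusted p below 0.05 with glucose, 434 without, 674 on average and 465 for the interaction. With so few genes called over the whole table, the lack of calls is not particular to these 4 genes.

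NIBAN1 differed by -0.093 on the log2 scale with glucose (95% interval -0.29 to 0.10, adjusted p = 0.965) and by -0.023 without (-0.22 to 0.17, adjusted p = 0.999). Its glucose difference changed by -0.070 between the siRNAs (95% interval -0.35 to 0.21, adjusted p = 0.999). The other NIBAN1 probe set gave 0.16 with glucose (-0.17 to 0.50) and 6.1e-04 without (-0.33 to 0.34). RAB39B differed by 0.028 with glucose (-0.19 to 0.24, adjusted p = 0.990) and by -0.021 without (-0.23 to 0.19, adjusted p = 0.999), and its interaction was 0.049 (-0.25 to 0.35). On its dimmer probe set it differed by -0.28 with glucose (-0.69 to 0.14) and by 0.0094 without. In either medium the SRC-1 intervals of NIBAN1 and RAB39B on their brightest probe sets thus reach at most 0.29 (log2) in size, beside glucose differences of over 4.

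Of the paralogs, NIBAN2 differed by 0.0087 with glucose (95% interval -0.23 to 0.25) and by -0.017 without (-0.26 to 0.22). On the brightest probe sets RAB39A had the largest SRC-1 difference of the 4 genes, -0.23 with glucose (-0.46 to 0.012, unadjusted p = 0.060 and adjusted p = 0.893, limma), from 5.10 and 4.90 to 4.69 and 4.86. Without glucose it differed by 0.042 (-0.20 to 0.28), and its interaction was -0.27 (-0.60 to 0.068, adjusted p = 0.999). Averaged over both media the differences were -0.058 for NIBAN1, -0.0041 for NIBAN2, -0.092 for RAB39A and 0.0034 for RAB39B, with adjusted p of 1.00 for all 4 genes.

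**Figure D3:**
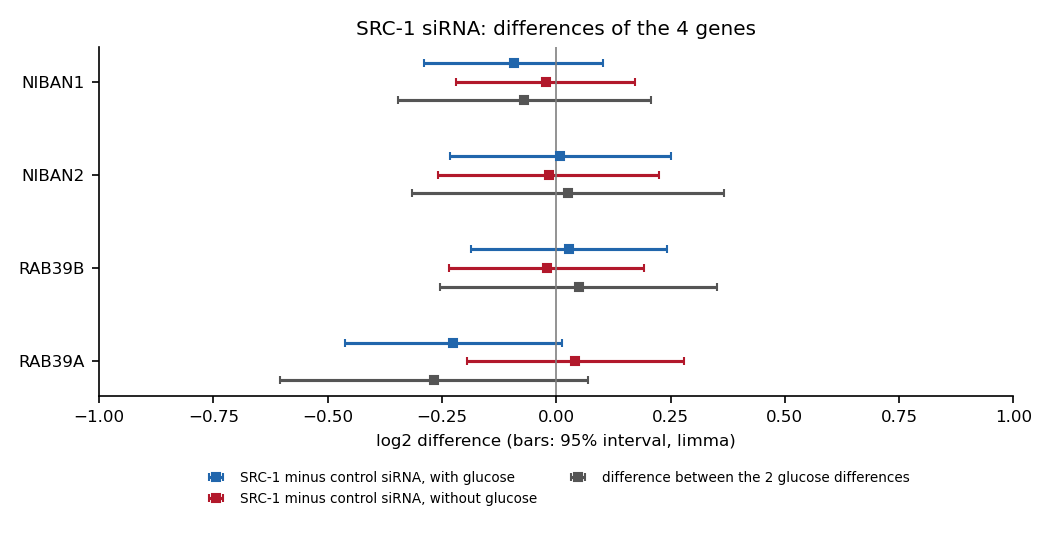
Difference of the log2 signal between SRC-1 and control siRNA in each medium, and the interaction (horizontal axis), for the brightest probe set of each gene, with bars for the 95% interval from limma. Every interval includes 0, and the widest, for the interaction of NIBAN2, runs from -0.32 to 0.37.

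The genes with the pattern closest to each of the 2 glucose-lowered members were found from the 4 group means, each gene centred on its own mean, by Euclidean distance over all 13584 tested genes. NIBAN1 and RAB39B were each other's closest gene, at a distance of 0.16 on the log2 scale. The next 4 were the same for both: DDIT3, ATF3, BEX4 and BEX2. BEX4 passed the filter only through the groups without glucose, since its means with glucose, 3.59 with control siRNA and 3.74 with SRC-1 siRNA, lay below the limit of 4.80 that its overall mean had to reach, so its distance rests on such dim signals. DDIT3, the stress-induced factor CHOP, lay at 0.23 from NIBAN1 and 0.35 from RAB39B, with means of 11.82 without and 7.41 with glucose in control siRNA cells. ATF3, another stress-induced factor, lay at 0.57 and 0.43, with means of 9.58 and 5.90. BEX4 and BEX2, small proteins of a family on the X chromosome, lay at 0.74 and 0.88 from NIBAN1 and at 0.60 and 0.75 from RAB39B. The distance measures the size of the glucose difference above all, and NIBAN1 and RAB39B had been chosen for it. Correlations over the arrays are not given, since the arrays fall into 2 clusters by medium.

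**Figure D4:**
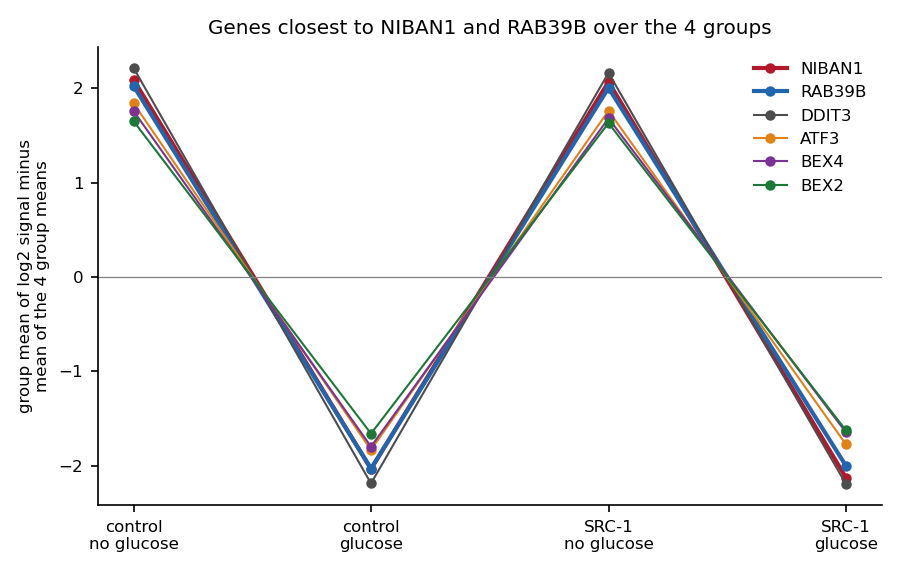
Group mean of the log2 signal minus the mean of the 4 group means (vertical axis) for NIBAN1, RAB39B and the 4 genes closest to them, over the 4 groups. All 6 genes are high in both groups without glucose and low in both with glucose, and the lines of NIBAN1 and RAB39B lie within 0.16 of each other as a distance over the groups.

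In the RAB family, RAB39B stood apart by size, as its choice fixes. Of the other 60 RAB genes listed, 55 had a probe set and 48 were tested, and their differences ran from -0.49 to 0.86 with control siRNA. Of these 48, 12 rose and 5 fell with glucose in control siRNA cells (25.0% and 10.4%), against 23.6% and 21.6% of all genes, and the median was 0.031 against 8.8e-04 over all genes. With SRC-1 siRNA 14 rose and 5 fell (29.2% and 10.4%), against 24.6% and 20.0% of all genes. The exocytic RAB3D (0.83 ± 0.063, SE, n = 2 per group) and RAB27B (0.80 ± 0.062) rose, as did RAB40B (0.75 ± 0.078), RAB26 (0.86 ± 0.12) and RAB4A (0.57 ± 0.071), which serves recycling from endosomes. The members that fell with control siRNA were RAB5A (-0.49 ± 0.066) and RAB5B (-0.22 ± 0.066), both of early endosomes, RAB24 (-0.49 ± 0.080), linked to autophagy, RAB22A (-0.30 ± 0.063) and RAB2B (-0.21 ± 0.075). With SRC-1 siRNA RAB24 fell by 0.64 on the log2 scale and RAB43 by 0.34, beside RAB5A, RAB5B and RAB22A. No difference between the siRNAs was called for RAB2B or RAB43 (interactions 0.16 and -0.21, adjusted p = 0.999 for both, limma).

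**Figure D5:**
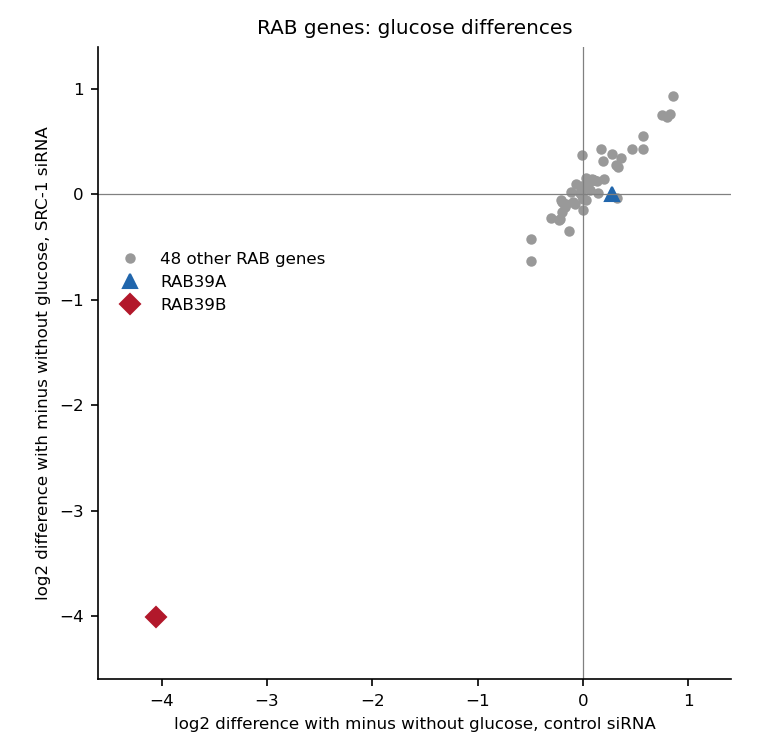
Difference of the log2 signal with minus without glucose for 48 other RAB genes, RAB39A and RAB39B, with control siRNA (horizontal axis) and with SRC-1 siRNA (vertical axis). RAB39B lies at -4.06 and -4.01, RAB39A at 0.28 and 0.0080, and the other RAB genes between -0.64 and 0.93 on both axes.

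Among genes of the general RAB machinery, the counts were near the shares of all genes. The 5 tested genes were CHML, RABGGTA, RABGGTB, GDI2 and RABIF. Of these, 1 rose and 1 fell with either siRNA. The shares of all genes that rose and fell were 23.6% and 21.6% with control siRNA and 24.6% and 20.0% with SRC-1 siRNA. CHML, a RAB escort protein, rose by 0.69 ± 0.073 with control siRNA, and RABGGTB, a subunit of the enzyme that attaches the lipid anchor, fell by 0.37 on the log2 scale (SE 0.096). Of 5 known partners of the RAB39 proteins, 2 fell and 0 rose with either siRNA, beside 21.6% and 20.0% of all genes called lower, and with 5 genes nothing is read from this count. WDR41, which forms a complex with C9orf72 and SMCR8 that acts on RAB39B, fell by 0.54 with control siRNA (SE 0.078) and by 0.44 with SRC-1 siRNA. SMCR8 had 0.11 in both and PICK1, an effector of RAB39B, 0.14 and -0.13, none of them called. UACA, a partner of RAB39A, fell with SRC-1 siRNA (-0.23 ± 0.066) and had -0.036 with control siRNA. Its difference between the siRNAs was not called (interaction -0.19, adjusted p = 0.999, limma).

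C9orf72 itself fell with control siRNA (-0.58 ± 0.10, adjusted p = 0.00181, limma) and had 0.056 with SRC-1 siRNA. Its probe set 225919_s_at had 7.06 and 7.14 with control siRNA without glucose, 6.36 and 6.67 with control siRNA and glucose, 6.98 and 7.08 with SRC-1 siRNA without glucose, and 7.09 and 7.09 with SRC-1 siRNA and glucose. The low values were thus those of the control siRNA group with glucose alone. The difference between the siRNAs did not pass the correction (interaction 0.64, 95% interval 0.31 to 0.97, unadjusted p = 0.00194, adjusted p = 0.999, limma). The other 2 probe sets of C9orf72 gave interactions of 0.015 and -0.038, so this pattern rests on 1 probe set of 3.

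NIBAN1 is tied by background knowledge to eIF2 and the control of translation, and 18 of 18 genes listed for that were tested. With control siRNA 8 fell and 5 rose with glucose (44.4% and 27.8%), and with SRC-1 siRNA 6 fell and 5 rose (33.3% and 27.8%), beside the shares of all genes given above. The median was -0.042 with control siRNA and -0.046 with SRC-1 siRNA. PPP1R15A, the stress-induced subunit that directs dephosphorylation of eIF2, fell by 2.49 (SE 0.090) with control siRNA. EIF2AK3, the ER stress kinase PERK, fell by 1.01 (SE 0.071) and the translation repressor EIF4EBP1 by 1.05 (SE 0.075), while its relative EIF4EBP2 rose by 0.97 ± 0.098. EIF2S2, a subunit of eIF2, fell by 0.57 (SE 0.062). Of the other eIF2 kinases, EIF2AK2 (0.69 ± 0.098) and EIF2AK4 (0.33 ± 0.12) rose with control siRNA. EIF2AK1 rose with SRC-1 siRNA (0.26 ± 0.066) and had 0.068 with control siRNA. For EIF2AK1 the difference between the siRNAs was not called (interaction 0.20, adjusted p = 0.999, limma). The cap-binding factor EIF4E (0.39 ± 0.095) and EIF2B5 (0.29 ± 0.089), a subunit of the exchange factor of eIF2, rose with control siRNA. EIF2S1, the eIF2 subunit that is phosphorylated, had 0.041 and was not called.

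The targets of the integrated stress response, the pathway downstream of eIF2, mostly fell with glucose. Of 34 tested genes 29 fell and 1 rose with control siRNA (85.3% and 2.94%), beside 21.6% and 23.6% of all genes. With SRC-1 siRNA 30 fell and 1 rose (88.2% and 2.94%), beside 20.0% and 24.6% of all genes. The median was -1.13 with control siRNA, beside 8.8e-04 over all genes, and -1.05 with SRC-1 siRNA. The response of this pathway was known from these arrays when the list was drawn up, so the count is no independent evidence. DDIT3 (-4.40 ± 0.086) had a larger difference than NIBAN1. Among the genes with the smallest p were also STC2 (-2.77 ± 0.079), HERPUD1 (-2.52 ± 0.065), PCK2 (-2.27 ± 0.064) and NUPR1 (-2.09 ± 0.063). ATF5, a factor of the same response, rose by 0.67 ± 0.094. The list ran from -4.40 to 0.67 with control siRNA, and the differences of NIBAN1 and RAB39B lay between those of DDIT3 and ATF3 (-3.67 ± 0.11).

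The neighbours of NIBAN1 and RAB39B on the chromosome had much smaller differences than these 2 genes. The choice of the 2 genes for their large differences all but fixes this, so nothing is read from it. By the gene order of RefSeq, 3 tested genes on each side were taken, a choice made after the members' values were seen. Around NIBAN1 on chromosome 1 the differences of 6 genes ran from -0.56 to 0.35 with control siRNA, with 2 called lower (TSEN15 and IVNS1ABP) and 1 called higher (TRMT1L), beside 21.6% of all genes lower and 23.6% higher. With 6 genes around each member, nothing is read from these counts. Around RAB39B on the X chromosome the differences ran from -0.33 to 0.83. VAMP7, a vesicle fusion protein, was called lower (-0.33 ± 0.061), and BRCC3 (0.83 ± 0.086) and MTCP1 (0.75 ± 0.15) were called higher. Around NIBAN2 on chromosome 9 the differences ran from -0.30 to 0.14, with 2 called lower and 0 higher. Around RAB39A on chromosome 11 they ran from -0.17 to 0.60, with 0 called lower and 1 higher. With SRC-1 siRNA these ranges were -0.31 to 0.28 and -0.16 to 0.58, and the upper end around NIBAN2 was close to the 0.29 of NIBAN2 itself. Likewise with SRC-1 siRNA, the 6 neighbours of NIBAN1 ran from -0.50 to 0.42 and those of RAB39B from -0.36 to 0.76.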

How the data were processed

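Signals of 8 Affymetrix arrays were analysed; groups and replicate numbers follow the sample titles. Biotinylated cRNA was made by the standard Affymetrix procedure, per the labels' protocols. The authors deposited 1 value per probe set and array, read here as log2 signal because of their range (1.98 to 14.7). Their background correction and normalization are not given in the sources used here, and no detection calls were used.

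Gene names come from the platform annotation, updated through RefSeq identifiers (GRCh38.p14). Of 54675 probe sets, 41091 had 1 gene, 1801 several and 41037 matched by Entrez identifier. Probe sets with a mean below the 40th percentile (log2 4.80) were left out, and the brightest per gene was kept, which left 13584 genes. All 8 arrays entered 1 limma fit (limma 3.58.1, R 4.3.3) with a mean per group, 4 residual and 4.35 prior degrees of freedom. Tests were two-sided and moderated, with Benjamini-Hochberg adjustment over all genes and a threshold of 0.05. SEs of the members' glucose differences come from the same fit over all 41091 probe sets, as do the values of their other probe sets. The fit was also run on simulated noise with added shifts larger than the members' SRC-1 differences. That run says nothing on differences as small as the SRC-1 differences.

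The members and lists were chosen with earlier results of these data known. Named are the members, the 5 genes closest to NIBAN1 and to RAB39B, and in each list up to 5 called genes with the smallest p and those called against its median. Further list genes and the neighbours were named after their values were seen. Alternatives were other scalings, filters, probe set rules, priors and array weights, fits limited to the compared groups, a replicate block, and each array left out.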

Additional observations from a re-analysis of the deposited data

How the results depend on the processing

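The number of arrays limits what can be seen: over all genes, group differences had a median SE of 0.083 (log2), and signals were not set against background. In the SRC-1 siRNA comparisons the members had 284 values under the alternatives, of which 0 were called (lowest adjusted p 0.553) and 38 had the sign turned. The glucose differences of NIBAN1 and RAB39B kept their direction under every alternative that gave a value.

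With all probe sets of a gene averaged, the glucose difference of RAB39B was -4.20 with control siRNA and -4.32 with SRC-1 siRNA, with its dimmer probe set weighing in. That setting turned the SRC-1 difference with glucose to 0.035 for NIBAN1 and -0.12 for RAB39B, the average over both media to 0.012 for NIBAN1, 0.024 for NIBAN2 and -0.065 for RAB39B, and the interaction to 0.046 for NIBAN1 and -0.12 for RAB39B. Quantile normalization turned NIBAN2 to -0.013 for SRC-1 siRNA with glucose and to -0.0048 for the interaction. Leaving out 1 array at a time gave ranges of -4.29 to -4.11 for the glucose difference of NIBAN1 under SRC-1 siRNA. For that of NIBAN2 it gave 0.15 to 0.43 under SRC-1 siRNA and 0.20 to 0.32 under control siRNA, which was 0.16 with its probe sets averaged. For that of RAB39A it gave 0.17 to 0.38 under control siRNA and -0.077 to 0.093 under SRC-1 siRNA. For SRC-1 siRNA with glucose it gave -0.13 to 0.15 for NIBAN2 and -0.040 to 0.096 for RAB39B. Without glucose it gave -0.11 to 0.066 for NIBAN1, -0.11 to 0.077 for NIBAN2, -0.059 to 0.14 for RAB39A and -0.11 to 0.069 for RAB39B. For the average it gave -0.073 to 0.064 for NIBAN2 and -0.042 to 0.049 for RAB39B. For the interaction it gave -0.16 to 0.020 for NIBAN1, -0.11 to 0.16 for NIBAN2 and -0.042 to 0.14 for RAB39B.

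Counts of genes called over the whole table moved as follows. Testing every probe set on its own called 9890 and 9601 for glucose with control and SRC-1 siRNA, against 6142 and 6070 genes, with more features tested. For SRC-1 siRNA with glucose, 1 gene was called, 2 with the filter at the 60th percentile, 4 with every probe set and 3 with a prior that follows mean expression. Without glucose, 3 were called, 5 with that prior, 1 with no filter, 1 in a fit of only the groups compared, 1 with the replicate block and 1 to 2 with an array left out. On average over both media, 4 were called, 7 with that prior and 2 to 3 with an array left out. The cause of these changes was not tested. The replicate numbers of the labels name no shared culture or day, and the deviations of same-numbered arrays correlated between -0.096 and 0.12 over genes, so they were not taken as pairs. The replicate block changed no call of a member. RAB39A gave no value with the filter at the 60th percentile or without the first array of control siRNA with glucose, where it fell below the filter, and NIBAN1 none without probe sets ending in _s_at or _x_at.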
